A study of Mus musculus with 10 samples.

Results

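Egr1, Egr2, Egr3, Egr4, Nr4a1, Nr4a2, Nr4a3, Npas4 and Arc are genes that neurons switch on within minutes of synaptic activity, and their histone marking was examined in sorted neuronal nuclei of the mouse hippocampus. They were chosen by name, 9 of 21883 protein-coding genes in the RefSeq annotation of GRCm38.p6 (mm10). At each, the length of DNA covered by H3K4me3 peaks was measured in 3 places. The promoter window reached 2 kb to each side of the better covered gene end, the union region was the whole stretch there that carried a peak in any library, and the flank held all other peaks within 50 kb of that end.

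The products of these genes act in a chain that begins with calcium entering the neuron. Calcium signalling through CaM kinases and the MAP kinase cascade reaches the transcription factors CREB, SRF and MEF2, which already sit near the start sites and switch the genes on without new protein synthesis. Egr1 to Egr4 encode zinc finger transcription factors, Nr4a1 to Nr4a3 encode orphan nuclear receptors, Npas4 encodes a neuron-specific bHLH-PAS transcription factor, and Arc encodes a cytoskeleton-associated protein that promotes removal of AMPA receptors from synapses. H3K4me3, trimethylated lysine 4 of histone H3, lies around the start sites of active or poised genes, and in neurons it can be present before such a gene is induced.

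The 8 H3K4me3 libraries were made by ChIP-seq from NeuN-sorted nuclei of hippocampal CA1. Of these, 4 came from transgenic males overexpressing CaMKIIδC, labelled CamkdeltaC, a splice form of the calcium-dependent kinase CaMKIIδ, and 4 from littermate control males; all are labelled 3 months old. The protocol shared by all samples tells of vehicle in the drinking water of controls and of vorinostat, a histone deacetylase inhibitor, or vehicle in that of transgenic mice, but no sample carries a drug label. No source used here gives the promoter driving the transgene or says whether each library is a separate animal. The tests therefore weigh differences against the spread of the libraries as labelled, part of which may be technical.

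Groups and replicate numbers follow the sample titles, and the peak lists carry the same group names and numbers. A letter in the sample descriptions, however, is swapped between the groups in the names of the lists, so the direction of every difference rests on the titles. Each library had its own deposited peak list, with 51903 to 102285 peaks, and the read depth is unknown. The lists covered 37.5 to 43.1 Mb in control and 45.2 to 57.7 Mb in transgenic libraries. Every transgenic list thus covered more of the genome than every control list, and the cause was not tested. Transgenic replicate 1 stood apart, with 102285 peaks and 57.7 Mb, and its highest summit fold enrichment was 55.8 where the other 7 libraries reached 67.5 to 82.0. Neuronal marker genes had a promoter peak in all 8 libraries in 9 of 9 cases. Of 7 microglial markers, 5 had no peak in any library, and of 7 astrocyte markers 4 had a peak in all 8. Over each whole list, unmarked genes included, the median covered length was 633 bp for the astrocyte and 2868 bp for the neuronal markers. Summed over a list, covered length ranged from 4503 to 5630 bp in control and 4153 to 6370 bp in transgenic libraries for the astrocyte markers, and from 2452 to 3645 bp and 1350 to 3411 bp for the 7 endothelial markers. Oligodendrocyte lineage markers, of which Mog, Mobp and Mag had no peak, summed to 3193 to 5113 bp and 2950 to 4838 bp. The part of non-neuronal nuclei in the results below was not tested.

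The DNA just upstream of the annotated start was available for 6 of the 9 genes, and it is shown because the elements through which calcium reaches these genes are known to lie there. The RefSeq sequences of GRCm38.p6 below run 5′ to 3′ over the 250 bases before the start, on the strand of the gene. Capitals mark TGACG, the core of the cAMP response element that CREB binds, in either orientation, and the CArG box that SRF binds. Egr2 is shown at chr10:67537619-67537868 (+), Egr4 at chr6:85513590-85513839 (−), Nr4a1 at chr15:101266596-101266845 (+), Nr4a2 at chr2:57124004-57124253 (−), Nr4a3 at chr4:48045055-48045304 (+) and Npas4 at chr19:4989972-4990221 (−).
Egr2: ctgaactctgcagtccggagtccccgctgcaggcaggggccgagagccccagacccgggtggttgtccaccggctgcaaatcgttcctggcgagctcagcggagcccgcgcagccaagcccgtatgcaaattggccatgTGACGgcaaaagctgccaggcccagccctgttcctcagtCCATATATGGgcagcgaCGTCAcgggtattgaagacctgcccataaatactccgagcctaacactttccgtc
Egr4: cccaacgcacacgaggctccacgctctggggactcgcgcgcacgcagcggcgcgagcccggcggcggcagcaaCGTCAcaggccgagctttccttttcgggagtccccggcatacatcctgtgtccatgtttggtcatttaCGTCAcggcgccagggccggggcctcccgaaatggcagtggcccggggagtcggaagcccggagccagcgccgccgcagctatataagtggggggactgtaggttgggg
Nr4a1: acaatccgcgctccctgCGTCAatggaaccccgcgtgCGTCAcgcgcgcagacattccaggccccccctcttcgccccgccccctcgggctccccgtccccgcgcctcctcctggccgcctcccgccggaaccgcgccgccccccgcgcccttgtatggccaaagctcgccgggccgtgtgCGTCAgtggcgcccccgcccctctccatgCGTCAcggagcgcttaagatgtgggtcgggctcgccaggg
Nr4a2: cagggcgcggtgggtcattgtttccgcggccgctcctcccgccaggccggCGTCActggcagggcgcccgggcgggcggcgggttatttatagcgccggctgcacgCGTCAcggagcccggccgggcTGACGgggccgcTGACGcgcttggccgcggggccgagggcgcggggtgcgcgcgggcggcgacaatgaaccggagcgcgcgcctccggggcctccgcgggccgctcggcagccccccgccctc
Nr4a3: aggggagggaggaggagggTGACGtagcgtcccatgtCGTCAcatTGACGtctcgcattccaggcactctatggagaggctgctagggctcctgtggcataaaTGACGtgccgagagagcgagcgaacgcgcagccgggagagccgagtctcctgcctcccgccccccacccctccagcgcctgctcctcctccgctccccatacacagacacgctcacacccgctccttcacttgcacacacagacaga
Npas4: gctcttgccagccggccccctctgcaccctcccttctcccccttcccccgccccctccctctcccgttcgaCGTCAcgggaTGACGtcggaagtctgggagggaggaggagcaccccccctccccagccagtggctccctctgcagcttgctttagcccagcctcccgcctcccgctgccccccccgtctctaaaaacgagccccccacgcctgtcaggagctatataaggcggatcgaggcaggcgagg
The TGACG core occurred before an annotated start in 6 of 6 genes, where any start of a gene could count. Counted per start and not per gene, 17.8% of all 32851 annotated starts held it on either strand in the same window. The stretches shown held it 4 times in Nr4a1, Nr4a2 and Nr4a3 and 2 times in Egr2, Egr4 and Npas4, and 3.90% of all starts held it at least 2 times. Egr2 has 5 annotated starts, and the stretches before its best covered start and before its outermost start held no TGACG. The full palindrome TGACGTCA was in 0 of 6 and in 1.55% of all starts. A CArG box was found in Egr2 alone, against 1.47% of all starts, and a Mef2 site in Nr4a2 alone, against 2.92%. The binding sequences of the members' own proteins, GCGTGGGCG for the Egr factors and AAAGGTCA for the Nr4a receptors, were in 0 of 6, against 0.536% and 1.34% of starts. The 6 genes were rich in G and C, at 54% to 80% over all their annotated starts, where the median start had 52.4%. These matches describe letters only and say nothing of binding in these nuclei.

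Every member carried H3K4me3 at its better covered end in all 8 libraries, and several carried it over an unusually long stretch. Averaged over the 8 libraries, the union region held 7271 bp of peaks at Nr4a3, 6183 bp at Egr3, 4819 bp at Egr1, 4280 bp at Npas4, 3995 bp at Egr2 and 3498 bp at Arc. Among 14746 coding genes with such a region, these lengths rank at percentiles of 99.7, 99.3, 97.7, 96.2, 95.2 and 92.7. Egr4 followed at 2152 bp and a percentile of 70.4, Nr4a1 at 2031 bp and 65.8, and Nr4a2 at 1654 bp and 48.3. The median gene had 1686 bp, so 8 of 9 members lay above it, and 4 of 9 exceeded 4000 bp, a length that 4.73% of the genes exceeded. Nr4a1 and Nr4a2 each had a longer domain farther inside the gene than the one ranked here.

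**Figure D1:**
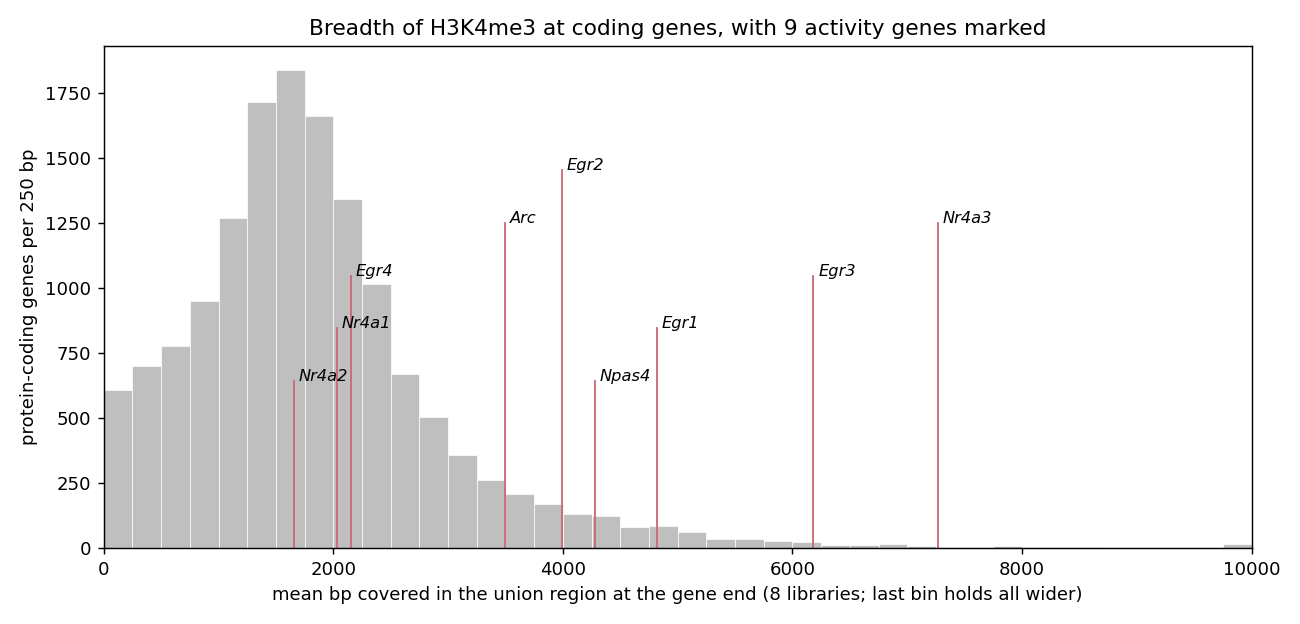
Histogram of the mean covered length (bp) of the union region at the better covered end of 14746 protein-coding genes, with the number of genes per bin on the y axis and a red line for each of the 9 activity genes (line height only separates the names). Nr4a3, Egr3, Egr1, Npas4, Egr2 and Arc lie in the right tail, and Egr4, Nr4a1 and Nr4a2 lie near the bulk around the median of 1686 bp.

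Egr1, the factor most often used as a marker of recently active neurons, spans chr18:34861207-34864956, and its union region ran over chr18:34858700-34864248. Covered length there was 4319, 4800, 4474 and 5204 bp in control replicates 1 to 4 and 4491, 5011, 5215 and 5038 bp in transgenic replicates 1 to 4. The groups overlapped, with the highest control value, 5204 bp, next to the highest transgenic value, 5215 bp. Peaks filled 65.5% to 81.1% of the gene itself and 1359 to 2000 bp of the 2000 bp outside its better covered end. In the promoter window, the control libraries held 3563, 3667, 3571 and 3900 bp and the transgenic ones 3239, 3813, 4001 and 4001 bp, so transgenic replicates 3 and 4 filled the window of 4001 bp and could not measure higher.

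Egr2, a factor also known for its role in myelinating Schwann cells, spans chr10:67534469-67542188 and had most of its signal away from the annotated gene ends. The window at its better covered end caught only 820 to 1328 bp, the edge of a domain over chr10:67535015-67539566 that holds start sites inside the annotated gene. At the best covered of these starts, 67537566, the window held 3943, 3971, 3654 and 3714 bp in control and 3606, 3695, 3962 and 3918 bp in transgenic libraries. Over the whole union region the values were 4045, 4019, 3690 and 4265 bp in control and 3815, 3755, 4098 and 4270 bp in transgenic libraries. Both sets overlapped between the groups. The lncRNA gene Gm32255 overlaps the upstream edge of this region, and peaks of the 2 genes cannot be separated there.

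Egr3, which in muscle is needed for sensory spindle formation and in neurons follows synaptic activity, lies at chr14:70077317-70082613 and had an even signal. The union region at chr14:70074279-70081050 held 6108, 6152, 5923 and 6372 bp in control and 6077, 6165, 6375 and 6292 bp in transgenic libraries, almost the same range. All 8 libraries covered the full 2000 bp inside the gene, and 1284 to 1904 bp of the 2000 bp outside. Promoter window values were 3505, 3687, 3285 and 3601 bp in control and 3505, 3599, 3905 and 3670 bp in transgenic libraries.

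Egr4, the least studied of the family, lies at chr6:85511121-85513589 and had the most variable peaks of the 4 Egr genes. Its union region at chr6:85511299-85514263 held 1841, 2162, 1949 and 2703 bp in control and 1039, 2012, 2778 and 2733 bp in transgenic libraries. Transgenic replicate 1 was the lowest of the 8 and covered 0 of the 2000 bp upstream, where the other 7 libraries covered 305 to 544 bp. In the promoter window the values were 1841, 2162, 1949 and 2413 bp in control and 1039, 2012, 2530 and 2505 bp in transgenic libraries, and the groups overlapped.

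Nr4a1, also called Nur77, spans chr15:101253902-101274795 and had separate domains at the far end of its annotation and at its annotated start, 12944 bp apart. The far domain, chr15:101253486-101256823, held 1849, 1793, 1664 and 2956 bp in control and 1814, 1399, 1910 and 2860 bp in transgenic libraries, and replicate 4 was the highest of each group. The start-site domain, chr15:101265915-101271292, was longer, with 4530, 4779, 3742 and 4167 bp in control and 4515, 3677, 4559 and 4526 bp in transgenic libraries. Its group means were 4305 ± 451 bp in control and 4319 ± 429 bp in transgenic libraries (SD, n = 4 each).
The 2000 bp downstream of the start were covered in full in all 8 libraries, while 665 to 793 of the 2000 bp upstream were covered. The window around the start held 2666, 2722, 2794 and 2754 bp in control and 2695, 2789, 2791 and 2756 bp in transgenic libraries, the narrowest range among the 6 genes with an annotated start. At the far end, the promoter window held 1626, 1610, 1425 and 2035 bp in control and 1263, 1199, 1910 and 2265 bp in transgenic libraries.

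Nr4a2, also called Nurr1 and known for its part in midbrain dopamine neurons, spans chr2:57106830-57124003. The region at its annotated start, chr2:57122386-57124658, lay wholly within the promoter window and held 1401, 1588, 1505 and 2132 bp in control and 1329, 1638, 1767 and 1869 bp in transgenic libraries. A domain inside the gene was much longer: chr2:57109531-57117786, which begins 6217 bp downstream of that start, held 6140, 7018, 6170 and 7789 bp in control and 6457, 6718, 7840 and 7631 bp in transgenic libraries. The table used here lists no Nr4a2 start within that domain. The predicted gene LOC105244150 overlaps the start region.

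Nr4a3, also called Nor1, spans chr4:48045078-48086447 and had the longest own region of the 9 genes. The region, chr4:48041664-48049428, held 7039, 7000, 7524 and 7581 bp in control and 6799, 7261, 7487 and 7477 bp in transgenic libraries. It ran across the annotated start without a gap in all 8 libraries, and the promoter window at the gene end was nearly full, with 3539, 3610, 3782 and 3927 bp in control and 3462, 3614, 3882 and 3884 bp in transgenic libraries. Yet only 15.5% to 18.3% of the long gene was covered. A weaker domain farther in, chr4:48050945-48055100, held 2136, 3068, 2091 and 2888 bp in control and 3089, 3129, 2785 and 3055 bp in transgenic libraries; its groups overlapped (log2 difference 0.15 ± 0.10 SE, limma adjusted p = 0.702).

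Npas4, which in response to calcium sets the number of inhibitory synapses on a neuron, is annotated at chr19:4984353-5003439 with a start at 4989971 on the minus strand. The better covered end by the rule was its 3′ end, 5618 bp away, and the window there held 979, 612, 1010 and 1865 bp in control and 1214, 756, 954 and 1000 bp in transgenic libraries. The union region, chr19:4984434-4990113, reached from there to the start and held 4247, 3829, 3853 and 5459 bp in control and 4240, 3850, 4111 and 4652 bp in transgenic libraries. Control replicate 4 was the highest in both places.
Around the annotated start the picture differed: the window held 2642, 2422, 2519 and 2640 bp in control and 2677, 2900, 3084 and 2790 bp in transgenic libraries. The groups did not overlap in covered bp before centring, and whether the centred values overlapped in this window was not examined. Each transgenic peak list also covered more of the genome than each control list. The 2000 bp downstream of the start were covered in full in all 8 libraries and could not measure higher. The difference in this window therefore lay upstream of the start, still within the annotated gene. The values there were 641, 421, 518 and 639 bp in control and 676, 899, 1083 and 789 bp in transgenic libraries. Most of the difference came from a small region, chr19:4990195-4991279, beginning 224 bp upstream of the start behind a gap of 88 to 669 bp. That region held 605, 286, 434 and 554 bp in control and 660, 757, 959 and 678 bp in transgenic libraries, with a log2 difference of 0.52 ± 0.29 SE and a limma adjusted p of 0.702.

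Arc lies at chr15:74669081-74672570 and was covered almost from end to end, at 94.0% to 100% of the gene. The union region, chr15:74668787-74672623, held 3394, 3720, 3470 and 3531 bp in control and 3778, 3398, 3301 and 3394 bp in transgenic libraries. Transgenic replicate 1 was the highest of the 8, and the other 3 transgenic libraries, at 3301 to 3398 bp, lay at the low end of the control range or under it. A gap of 111 to 269 bp near the gene end divided it, in all 8 libraries, from a region beyond that end at chr15:74672704-74674102 of 562 to 1227 bp. A small region at chr15:74679280-74680004, 6710 bp beyond the end, was present in all 8 libraries with 219, 584, 369 and 418 bp in control and 395, 250, 532 and 214 bp in transgenic libraries. The lncRNA gene Gm32994 overlaps both of these outer regions. Promoter window values were 2964, 3151, 2702 and 2704 bp in control and 3222, 2655, 2577 and 3029 bp in transgenic libraries.

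**Figure D2:**
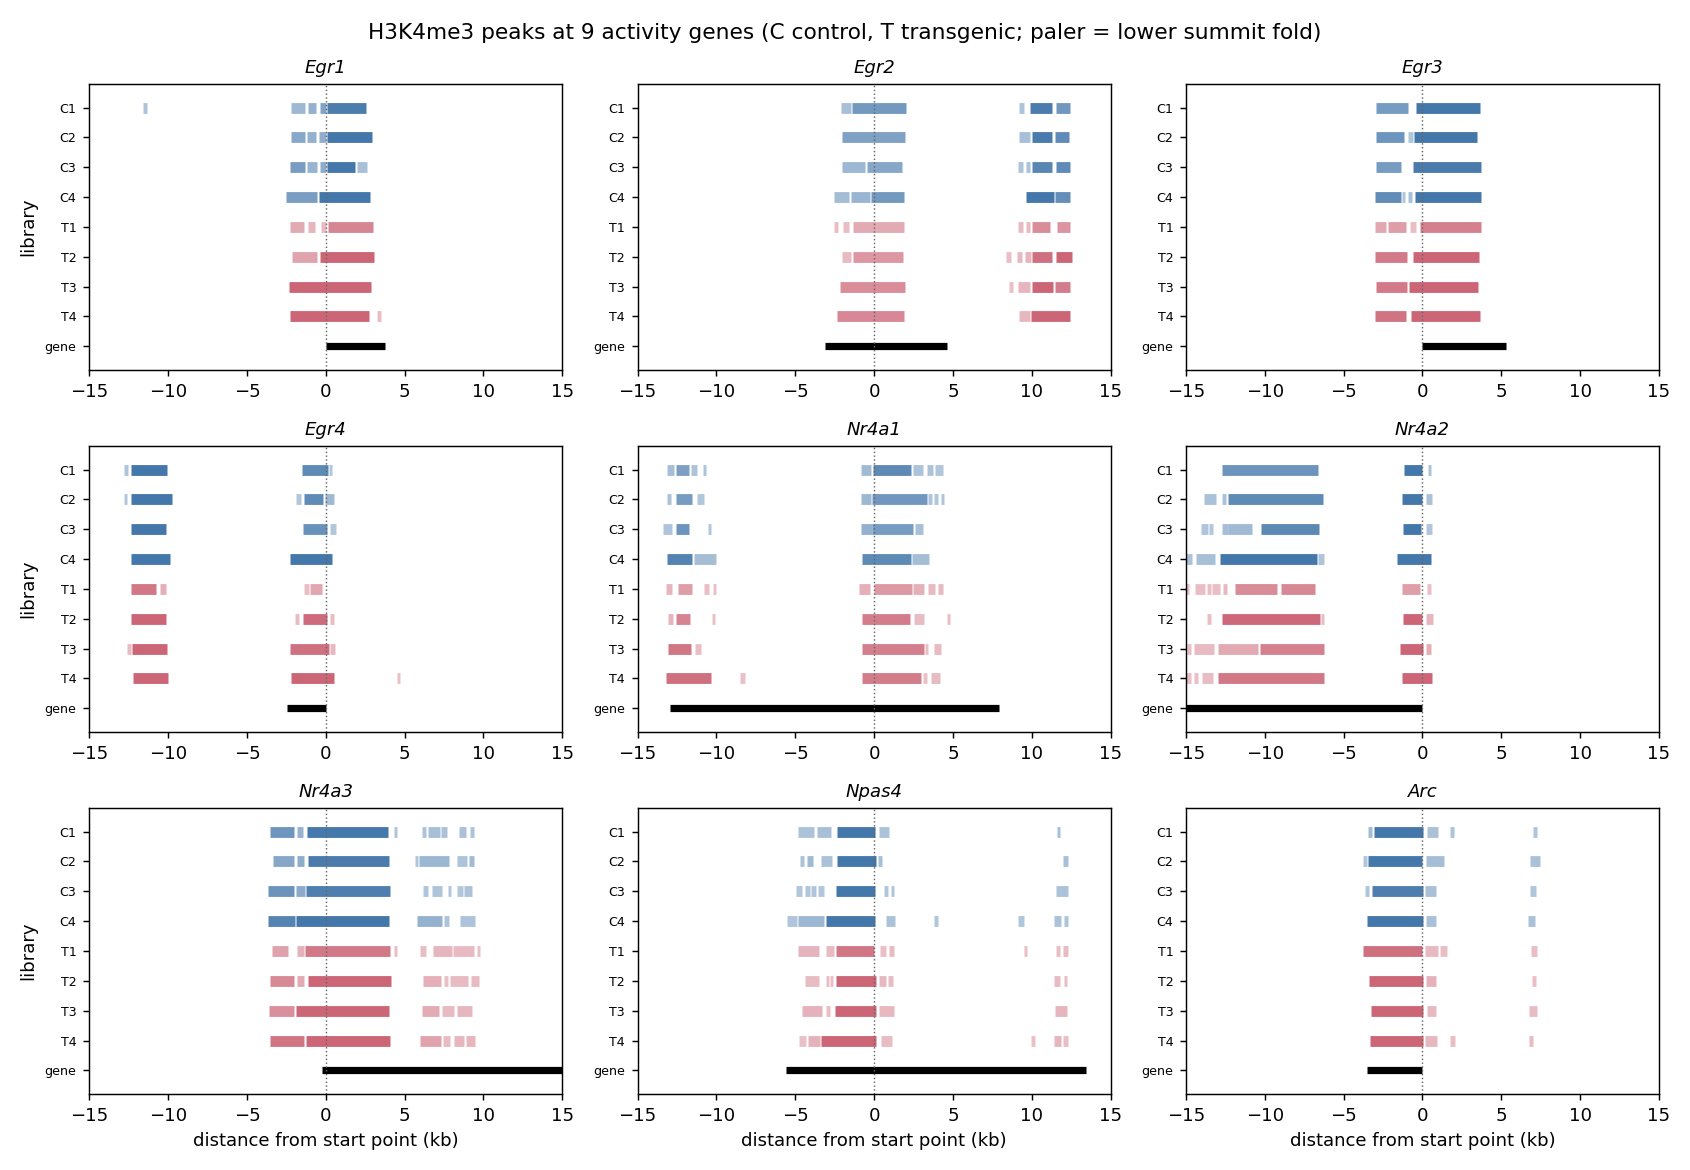
H3K4me3 peaks of each library (blue, control C1 to C4; red, transgenic T1 to T4; paler where the authors' summit fold is lower) by distance in kb from the start point of each gene, with the annotated gene in black and genome position increasing to the right. The start point is the annotated start for Egr2, Egr4, Nr4a1, Nr4a2, Nr4a3 and Npas4 and the better covered gene end for Egr1, Egr3 and Arc; Nr4a1 and Nr4a2 show separate domains, and the small block just right of the Npas4 start is the upstream region that was longer in the 4 transgenic libraries.

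Inside here means downstream of an annotated start, or into the gene from the end used where no start was annotated. Outside is the opposite side. At Egr2, Nr4a1 and Npas4 the start lies within the annotated gene, and so do the 2000 bp outside. On average the mark covered more of the 2000 bp inside than outside at 8 of 9 members, and about as much at Egr2. Coverage inside was complete in all 8 libraries at Egr3, Nr4a1, Nr4a3 and Npas4, and it was 1995 to 2000 bp at Arc. The inside mean was 1952 bp at Egr1, 1902 bp at Egr2, 1665 bp at Egr4 and 1266 bp at Nr4a2. The length outside differed more between members. Outside, the mean was 387 bp at Nr4a2, 391 bp at Egr4, 708 bp at Npas4, 745 bp at Nr4a1 and 875 bp at Arc. It was 1594 bp at Egr3, 1748 bp at Nr4a3, 1767 bp at Egr1 and 1905 bp at Egr2. Over 11739 annotated starts the medians were 1070 bp inside and 557 bp outside, and 78.6% had more inside.

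**Figure D3:**
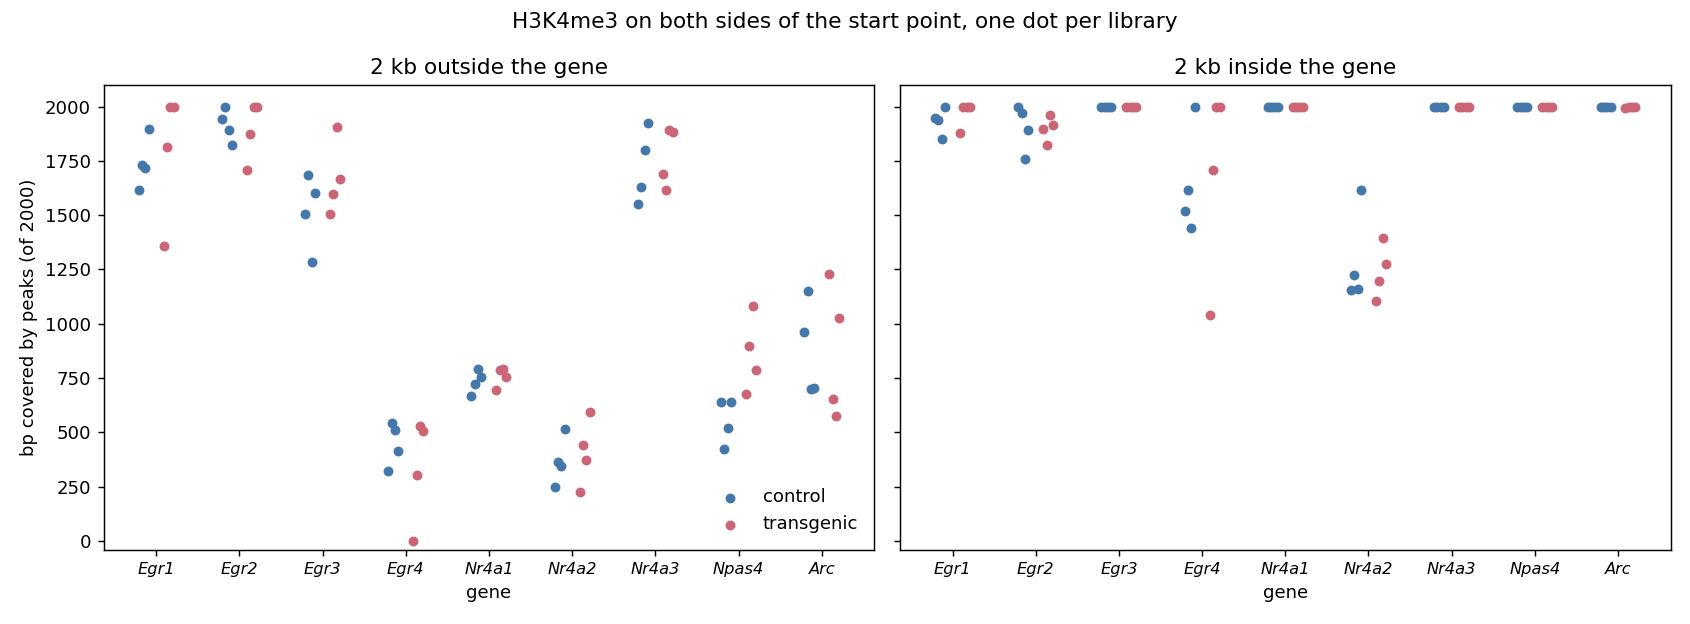
Covered length (bp, at most 2000) in the 2 kb on the outer (left) and inner (right) side of the start point of each gene, 1 dot per library, blue for control and red for transgenic. At Egr2, Nr4a1 and Npas4 the outer side also lies within the annotated gene. The Npas4 dots separate by group on the outer side, where control libraries reach 641 bp and transgenic ones begin at 676 bp. On the inner side they lie together at 2000 bp, the most that can be measured.

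By the authors' fold enrichment at the summit, the tallest peak within 2 kb of the start point ranked in the upper part of each library's own list at every member. The lists hold all peaks, at promoters and elsewhere. Ranks among promoter peaks alone were not computed, so these ranks do not say how strong a peak was for a promoter. The percentile ranges over the 8 libraries were 91.0 to 98.1 at Arc, 90.1 to 97.5 at Npas4, 91.2 to 96.7 at Nr4a3, 89.8 to 96.2 at Egr1, 88.3 to 98.5 at Nr4a2 and 88.3 to 96.3 at Egr3. They were 85.1 to 92.8 at Egr4, 82.5 to 89.8 at Nr4a1 and 79.3 to 84.9 at Egr2. Compared library by library, Egr2 ranked below each of the other 8 members in all 8 libraries, and Nr4a2 and Nr4a3 ranked above Egr4 in all 8. Nr4a1 ranked below Egr1, Egr3, Nr4a3, Npas4 and Arc in all 8, and above Egr4 in 2. Among Arc, Npas4, Nr4a3, Egr1, Nr4a2 and Egr3, no gene ranked above another in all 8. At Npas4 the peak at the 3′ end ranked only between 29.5 and 78.5. Egr2 thus had a long but comparatively low domain, and Nr4a2 a short and high peak at its start.

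The comparison of transgenic with control libraries asked whether CaMKIIδC overexpression goes along with altered H3K4me3 at genes that CaM kinase signalling is known to induce. In the promoter window, 0 of 9 members passed an adjusted p of 0.05 in limma, as did 0 of 14749 genes tested (0%). Log2 differences in covered length ran from −0.13 ± 0.20 (SE) at Egr4 to 0.04 ± 0.05 at Egr3, with a median of −0.03 against −0.01 over all genes tested. No member reached an unadjusted p of 0.05, where 2.79% of all genes did so in the higher and 1.34% in the lower direction, and all adjusted p-values were 1.00. The groups overlapped in covered bp at all 9 members, while over all genes transgenic values lay wholly above control values at 1.86% and wholly below at 0.481%. The intervals were narrow at some members and wide at others. Nr4a3, Egr1 and Egr3 held 3239 to 4001 bp of the window of 4001 bp. Little room was left for a higher value there, so their narrow intervals do not show that an increase could be resolved. At Nr4a3 the 95% interval of the fold was 0.936 to 1.04, at Egr1 0.948 to 1.07 and at Egr3 0.953 to 1.11, but at Npas4 it was 0.614 to 1.40 and at Egr4 0.663 to 1.25. Single libraries set the sign at these 2 genes: without transgenic replicate 1 the Egr4 difference was 0.10, and without control replicate 4 that of Npas4 was 0.12.

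At annotated starts, Npas4 was the member that stood out, as 1 of 6 with a value. Its log2 difference was 0.14 ± 0.06 (SE), a fold of 1.10 with a 95% interval of 1.01 to 1.20, and its limma p was under 0.05 before adjustment. The adjusted p over 11739 genes was 0.999, and 0 genes passed (0%). At that unadjusted level 2.62% of these genes were higher and 1.41% lower. In covered bp before centring, transgenic values lay wholly above control values at 1.85% and wholly below at 0.537%. The count of 1 in 6 rests on a single gene. The window at the 3′ end of Npas4 gave the opposite sign, at −0.11 ± 0.26 (SE). The other 5 differed by −0.13 (Egr4), −0.03 (Egr2), −0.02 (Nr4a2), −0.01 (Nr4a1) and −0.00 (Nr4a3) on the log2 scale. At Nr4a1, the 95% interval of the fold was 0.924 to 1.07.

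**Figure D4:**
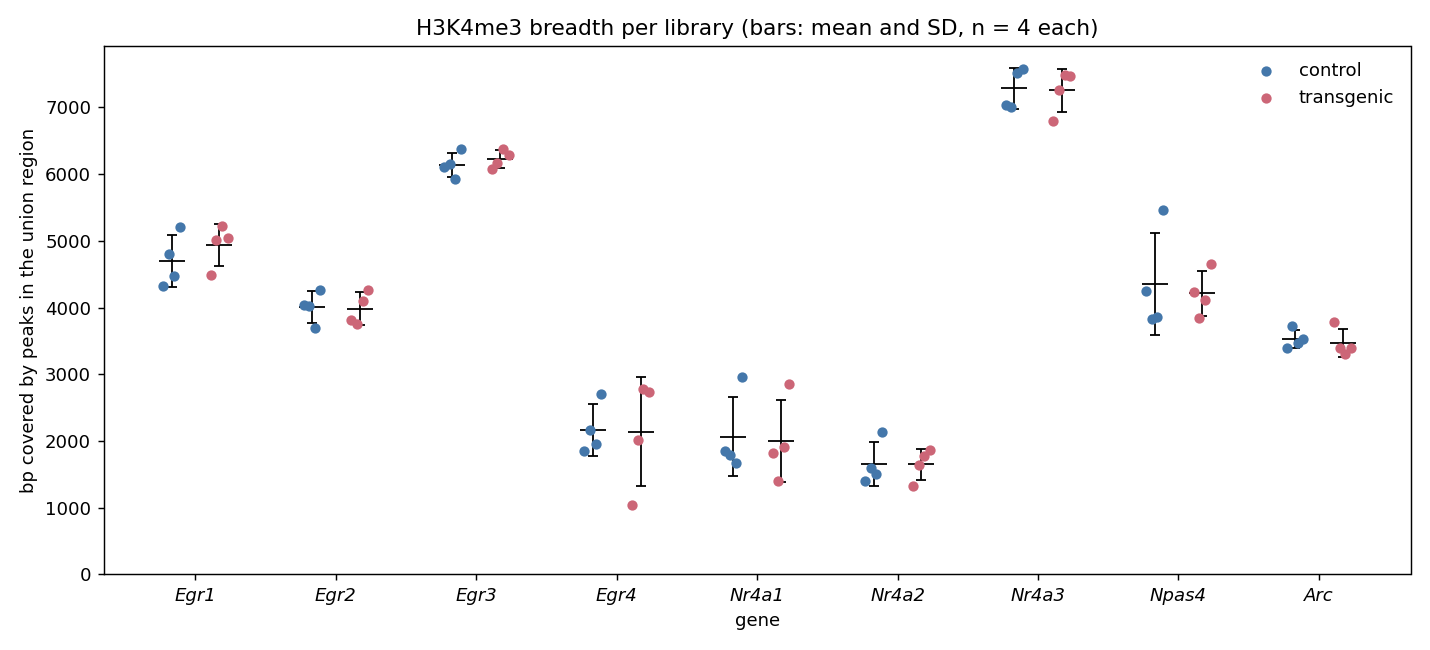
Covered length (bp) in the union region of each gene by library, blue for control and red for transgenic, with bars for the mean and SD of 4 libraries each. The groups overlap at all 9 genes, and the spread is widest at Egr4, Nr4a1 and Npas4.

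Over the full union region, 0 of 9 members passed, as against 35 of 72683 regions tested (0.0482%), of which 33 were higher in transgenic libraries. In covered bp the groups overlapped at all 9 members, where 3.26% of regions were wholly higher and 0.169% wholly lower in transgenic libraries. After centring each library on its own median region, all 9 members lay below 0, with a median of −0.11, and 4 had an unadjusted limma p under 0.05 in the lower direction, a level that 1.81% of regions reached, with 4.5% reaching it in the higher direction. These were Nr4a3 (−0.11 ± 0.03 SE, limma adjusted p = 0.358), Egr3 (−0.08 ± 0.03), Arc (−0.13 ± 0.06) and Egr2 (−0.11 ± 0.05), the last 3 at an adjusted p of 0.702. The low unadjusted values depended on the variance model. With an ordinary variance model the unadjusted limma p was 0.414 at Nr4a3, 0.527 at Egr3, 0.370 at Arc and 0.426 at Egr2. In centred values the transgenic libraries lay wholly below the control libraries at Egr3 and Nr4a3, as at 3.09% of all regions. That share is over regions of every length and was not computed for long regions at coding gene ends alone.
Most regions at coding gene ends also lay below 0, and how far the members did so differed with the scaling. The centring moved every region by 0.11 on the log2 scale, and the 12954 regions at ends of coding genes had a centred median of −0.09, with 78.9% below 0 and 7.09% lower at an unadjusted p of 0.05. Among the 612 of them over 4 kb, 88.4% lay below 0 and 26.6% were lower at that level. Without centring, 3 members lay above 0 and 6 below, with a median of −0.01, beside a median of 0.02 for those 12954 regions. With quantile normalization 8 of 9 members lay below 0, with a median of −0.09, and with an equal number of top-ranked peaks 8 of 9, with a median of −0.07.

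**Figure D5:**
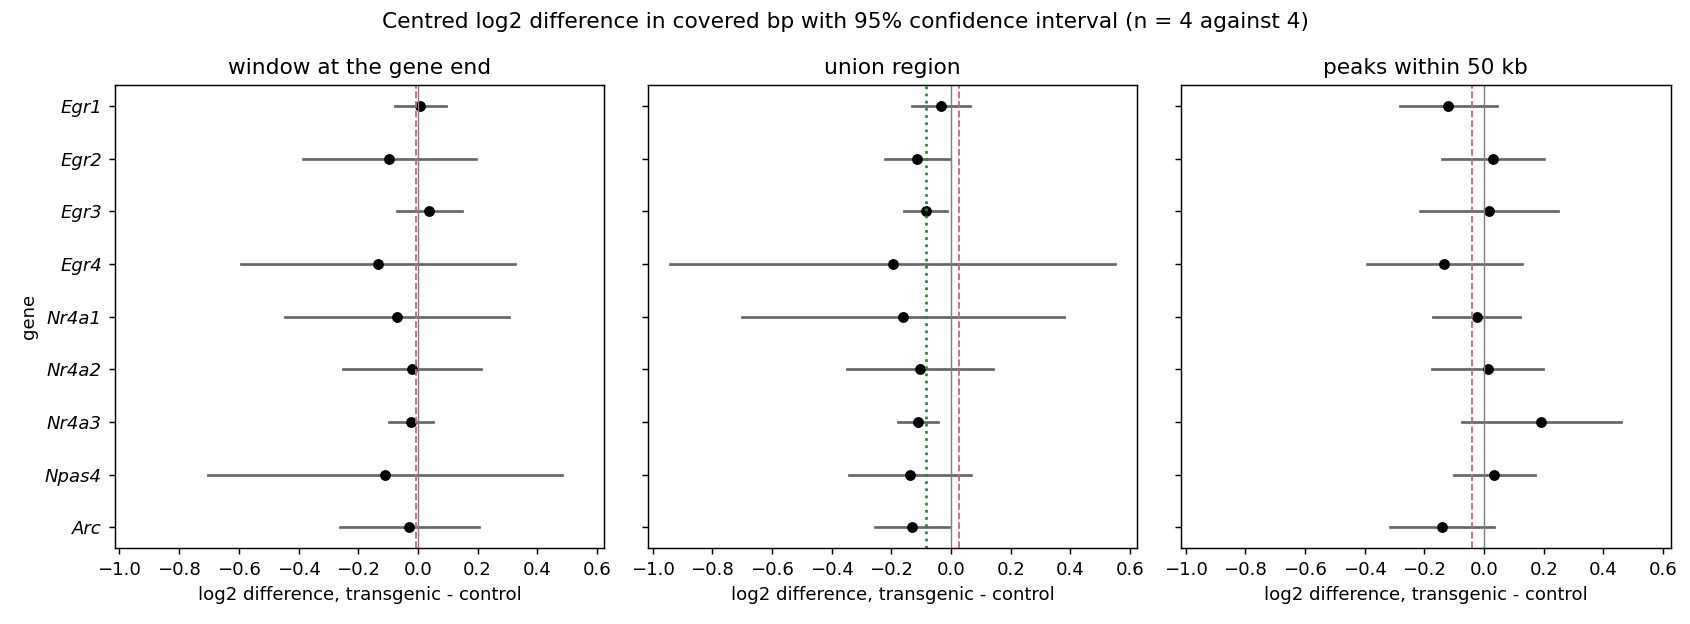
Centred log2 difference in covered length, transgenic minus control, with the 95% confidence interval for each gene in the promoter window, the union region and the flank within 50 kb (n = 4 against 4). The dashed red line is the median of all features tested and the dotted green line the median of regions at coding gene ends; in the union region the 9 points lie from −0.20 to −0.03, close to that green line, and in the other panels they lie on both sides of 0.

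Within 50 kb of the members there were 35 further regions with peaks in at least 2 libraries, and 23 of them were present in all 8. Nr4a1 had the most, 9 regions with 6 in all 8 libraries, and Npas4 followed with 6, of which 5 were in all 8. Egr3 had 1, at the end of Bin3. Of the 35, 20 lay over 2 kb from any coding gene end and 11 of these were in all 8 libraries. A distal region past the far side of Egr1, 25335 bp from its better covered end, chr18:34886542-34888386, held 1265, 1465, 1335 and 1479 bp in control and 1197, 1493, 1422 and 1845 bp in transgenic libraries, with a summit fold of up to 38.5. The groups overlapped there.

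Flank coverage overlapped between the groups at all 9 members. None of the 9 passed, nor did any of 16279 genes tested (0%), and none reached an unadjusted p of 0.05, where 6.49% of genes did in the higher and 4.82% in the lower direction. The log2 differences ran from −0.14 ± 0.08 (SE) at Arc to 0.19 ± 0.12 at Nr4a3, 5 above and 4 below 0, with a median of 0.01 against −0.04 over all genes. At Nr4a3 the flank held 2336, 3068, 2091 and 2888 bp in control and 3290, 3129, 3040 and 3055 bp in transgenic libraries, with transgenic replicates 3 and 4 below the highest control value. At Arc it held 4074, 4642, 4050 and 4320 bp in control and 4268, 3748, 4176 and 4203 bp in transgenic libraries, overlapping throughout. Over all genes, 5.99% had transgenic flank values wholly above the control values and 0.203% wholly below.
Of the 35 single regions 0 passed, where 0.0482% of all regions tested did. A region on the same side, 23159 bp from the Egr1 end, had a peak in 3 control and 0 transgenic libraries. Its peaks were short and low, at 202, 217 and 261 bp with a summit fold of at most 4.19. The promoter region of Fbxo41, the neighbour of Egr4, missed the threshold in limma at −0.28 ± 0.09 SE on the log2 scale, with an adjusted p of 0.425. None of the 35 was present in all 4 libraries of a group and absent from the other group, and the share of all regions with that pattern was not computed.

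The genes around these 9 in the same signalling chain also gave 0 calls in the promoter window, as did all 14749 genes tested (0%). Of 42 other activity-regulated genes, 41 had a promoter peak in enough libraries to be tested, Inhba having none, and 18 lay above and 23 below 0 with a median of −0.00. Crem, an inducible repressor of the CREB family, had the smallest p of the list at −0.13 ± 0.06 SE (limma adjusted p = 1.00), with 2135 to 2270 bp in control and 1873 to 2305 bp in transgenic libraries. Ier5 was the only list member whose groups did not overlap in covered bp, at 2048 to 2157 bp in control and 1640 to 2039 bp in transgenic libraries, as at 0.481% of promoters in that direction. In centred values the groups overlapped at Ier5, while 1 other gene of the list lay wholly lower in transgenic libraries. The share of all promoters wholly lower in centred values was not computed. Scg2, a neuropeptide precursor, stood at 0.15 ± 0.09 SE, and Sik1, a kinase that restrains CREB coactivators, at 0.14 ± 0.09 SE.
Among 35 upstream regulators 29 were tested, 11 above and 18 below 0, with a median of −0.01. The other 6, among them Mef2a, Mef2c and Camk4, had no peak at either annotated gene end. The smallest p-values in the higher direction were at Rps6ka1, a kinase of the MAP kinase branch (0.16 ± 0.11 SE), and Grin2b, an NMDA receptor subunit (0.06 ± 0.05 SE). In the lower direction they were at Creb1 (−0.10 ± 0.05 SE) and Camk2b, the beta subunit of CaMKII (−0.24 ± 0.14 SE), where transgenic replicate 1 had 1146 bp and the other 7 libraries 1803 to 2231 bp. Of 15 partners and co-repressors 14 were tested, 8 above and 6 below 0, with a median of 0.01. Nab2, which represses Egr factors, filled the whole window of 4001 bp in 7 libraries and held 3745 bp in transgenic replicate 1. Arnt, a dimer partner of Npas4, stood at −0.09 ± 0.08 SE, Triobp at 0.18 ± 0.17 SE and Cacng2, the AMPA receptor auxiliary subunit stargazin, at 0.06 ± 0.05 SE.

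Likeness was measured as the root mean square difference in centred log2 region length over the 8 libraries, among 14746 coding genes. The gene most like Egr3 was Khdrbs3, at 0.04, and the genes nearest to Nr4a2, Nr4a3, Egr2 and Egr1 were Arhgap10, Epha4, Kcnq3 and Mtcl1, at 0.05, 0.05, 0.05 and 0.06. Arc was nearest to Zfp277 at 0.06, Npas4 to Fbxl14 at 0.10, Egr4 to Cecr2 at 0.11 and Nr4a1 to Cabp1 at 0.17. The measure compares length as well as pattern, and no member was the nearest gene to another.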

How the data were processed

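Of 10 samples, the input sample of each genotype, whose antibody label reads IgG, was not analysed here. Per the submitters' processing notes, mm10 was the genome build, and MACS2, DiffBind, limma, deepTools 3.0.1, SAMtools 1.3.1, Bowtie2 2.0.2 and FastQC 0.11.5 were used; no source used here gives their settings or which input served as background. The authors deposited a peak list for each library, without read counts, so depth is unknown, and a deeper library or better precipitation gives more and wider peaks. For each peak the deposited lists hold a score (not used), a summit fold enrichment (ratio), and p-value and q-value on the −log10 scale. The fold ranked peaks within a list; the −log10 p-value picked an equal number of top-ranked peaks and the −log10 q-value a stricter list, as alternatives.

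Overlapping peaks were merged with Python 3.11.15 (numpy 2.4.6, pandas 2.3.3). The gene table has no strand, hence the better covered gene end; starts and strands came from the RefSeq promoter table where it lists the gene. Covered length, as log2(bp + 100), was centred per library on its median over features with a peak in all 8 and compared with limma 3.58.1 in R 4.3.3 (trended, robust, Benjamini-Hochberg over all features, threshold 0.05). Folds on this scale understate changes of short peaks. Genes needed a peak in at least 4 libraries for the promoter window and flank, and regions in at least 2. The fit was checked on simulated data. The members, gene lists and settings were chosen with earlier results of these data known. Named were the 9 members, the 2 genes per direction with the smallest p in each other list, and the likest gene to each member; the single regions described were chosen after their values were seen. Alternatives changed pseudocount, window, filters, centring, variance model, peak joining, ranking, chromosomes and replicates.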

Additional observations from a re-analysis of the deposited data

Results flagged for a closer look

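Within groups of 4 libraries, 6 values out of 84 groups checked lay far from the other 3 libraries by Dixon's criterion, which chance meets in about 1 in 20 groups. Egr2 had 1328 bp in the promoter window in control replicate 4, where the other controls had 940 to 952 bp. Egr2 flank coverage was 2526 bp in transgenic replicate 1, below the 3179 to 3299 bp of the other transgenic libraries, and the part of it over 2 kb from coding gene ends was 272 bp in transgenic replicate 2 and 0 in the other transgenic libraries. Egr4 flank coverage was 3846 bp in transgenic replicate 4, above 2683 to 2855 bp. At Nr4a1, the union region held 2956 bp in control replicate 4, above 1664 to 1849 bp, and flank peaks over 2 kb from coding gene ends held 8331 bp in transgenic replicate 4, above 7224 to 7339 bp.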

How the results depend on the processing

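With 4 libraries a group, unknown depth and lengths capped by each window, small differences could not be resolved; the exact permutation test of a single value cannot go below p = 0.0286. Under the settings tried, 0 members passed in the promoter window or flank. In the union region only Nr4a3 did, with regions needing a peak in at least 1 library (−0.11, limma adjusted p = 0.0454). Under that setting 871 of 137922 regions passed, 784 higher and 87 lower in transgenic libraries. Under its other alternatives the limma adjusted p of Nr4a3 was 0.329 or above.

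Counts of calls moved as follows, and the cause was not tested. Promoter window calls went from 0 to 5 with an ordinary variance model and 1 with peaks up to 500 bp apart joined. Union region calls went from 35 to 57 with array weights, 10 on autosomes only, 0 with an equal number of top-ranked peaks, 118 without centring, 296 with an ordinary variance model, 871 with a peak in at least 1 library, 0 with a peak in at least 4 and 6 with peaks joined. They were 15 without transgenic replicate 1 and 54 without control replicate 3, the lowest and highest on leaving out a library. Flank calls went from 0 to 13 with an ordinary variance model, and from 0 to 78 on leaving out a library, 45 without transgenic replicate 1 and 78 without transgenic replicate 4.

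The replicate numbers gave no sign of a pairing of the libraries. Same-numbered libraries correlated at −0.16 to 0.17 in the promoter window and −0.56 to −0.35 in the flank, and no control matched its own number best. With 4 libraries a group, this cannot show that the libraries were unpaired. With the replicate number as a block, calls were 0 in the promoter window, 0 in the union region and 1 in the flank.

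Some log2 differences of members changed sign, all without a call, and the cause was not tested. In the promoter window these were Npas4 at its annotated start (0.136), Egr4 with array weights (0.039) and top-ranked peaks (0.0184), Nr4a2 with array weights (0.0341), no centring (0.00212), windows of 1 kb (0.0164) and 5 kb (0.276), Egr1 with joined peaks (−0.0231), Egr2 with joined peaks (0.0798) and 1 kb (0.346), Nr4a3 with 1 kb (0.00859) and Egr3 with 5 kb (−0.0143). In the union region they were Egr1 with top-ranked peaks (0.00266), no centring (0.0717) and quantile normalization (0.00652), and Egr3 (0.0206) and Nr4a2 (0.00212) without centring. In the flank they were Npas4 within 100 kb (−0.0221), with top-ranked (−0.0212) and joined peaks (−0.0107), Nr4a1 within 20 kb (0.012), with top-ranked peaks (0.0228) and no centring (0.0588), Nr4a2 within 20 kb (−0.00539), with top-ranked peaks (−0.0223) and quantile normalization (−0.0421), Egr3 with array weights (−0.00976) and Egr4 with peaks over 2 kb from coding gene ends (0.162). Without a change of sign, Npas4 moved most, from −0.11 in the promoter window to −1.23 with 1 kb to each side and −0.42 with joined peaks (limma adjusted p = 0.999 and 0.994), and from 0.03 in the flank to 0.44 within 20 kb (adjusted p = 0.661). Egr3 could not be tested within 20 kb, nor Egr2 and Egr3 for such distal peaks.

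Leaving out each library in turn, values that changed sign ranged in the promoter window from −0.122 to 0.0305 (Arc), −0.0113 to 0.0388 (Egr1), −0.252 to 0.101 (Egr4), −0.334 to 0.123 (Npas4), −0.202 to 0.0644 (Nr4a1) and −0.0692 to 0.0739 (Nr4a2), in the union region from −0.349 to 0.0883 (Egr4), and in the flank from −0.00678 to 0.0849 (Egr2), −0.0285 to 0.0927 (Egr3), −0.0141 to 0.065 (Npas4), −0.0581 to 0.00639 (Nr4a1) and −0.0216 to 0.078 (Nr4a2).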
